A study of Mus musculus with 6 samples.

Results

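The kinesin motor superfamily was examined in CT26, a mouse colon carcinoma line of the BALB/c strain, with and without knockdown of the 15 kDa selenoprotein Sep15. Its members were all genes whose symbol in the array annotation is Kif followed by a digit, which gave 37 of the 18193 genes measured. From textbook roles, 12 of them were taken as mitotic kinesins and 15 as transport kinesins. The remaining 10 were other kinesins with centriole, cilium, signalling or unassigned roles. Kif2a was placed among these 10 although it also acts at spindle poles. The control group was 3 samples that had received pU6-m3 without insert, and the shSep15 group 3 samples that had received pU6-m3 with a short hairpin RNA (acagaagagttccatttaa, a 19-base stretch of the Sep15 cDNA, shown because it is what the knockdown vector carries). There was 1 hairpin. Clones or pools of transfected cells are not told apart in the labels, and the 3 RNA samples of a construct are not tied to separate cultures, so p-values cover the spread between these samples, which may be technical.

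Kinesins are motors that turn ATP hydrolysis into force on microtubules. Mitotic kinesins push spindle poles apart, move and align chromosomes, shorten microtubule ends and build the central spindle at which the cell divides, and their transcripts are known to accumulate late in the cell cycle. Transport kinesins carry vesicles, organelles and protein complexes toward microtubule plus ends throughout the cycle, several of them mainly in neurons or along cilia.

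Each sample was read on 1 Affymetrix Mouse 430_2 array, and values are RMA values on the log2 scale, so a difference of 1 is 2-fold. Array medians lay between 5.83 and 5.87, and an array correlated on average at 0.993 to 0.995 with its own group and at 0.977 to 0.979 with the other. The brighter probe set of Selenof, the current symbol of Sep15, read 12.35 to 12.44 on the control and 9.34 to 9.59 on the shSep15 arrays, 13.2% of the control signal. A gene is called near background when both of its group means lie under 6.02, a level set from receptor genes of smell that these cells should not use. Of 8 epithelial markers 4 were above it, among them Epcam, whereas Cdh1 and Cdx2 were near background. Of the leukocyte markers 4 of 7 were above it, with a summed level of 9.16 to 9.44 on control and 8.84 to 9.03 on shSep15 arrays (log2). Of these 7, 3 fell (42.9%, against 12.8% of all genes by limma), Cd68 by 1.48, Lyz2 by 0.47 and Itgam by 0.37. Ptprc, which defines leukocytes, was near background. The summed epithelial markers went from 9.54 to 9.79 on control down to 8.78 to 9.08 on shSep15 arrays, Krt18 and Krt20 having fallen. Krt18 was above the background level only by its control mean (6.65 on control, 4.48 on shSep15). Endothelial and neuron markers gave 0 calls in 5 and 6 genes by limma (0 at an unadjusted p under 0.05). The part of these markers in the results below was not tested.

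The kinesins split by role. Of the 12 mitotic kinesins 9 rose in shSep15 cells and 0 fell (0 also at an unadjusted p under 0.05), whereas of the 15 transport kinesins 1 rose and 3 fell, and of the 10 other kinesins 0 changed on their brightest probe set (2 were higher at an unadjusted p under 0.05). Over all 37 kinesin genes, 10 rose and 3 fell (limma, adjusted p under 0.05). Across all genes the same test called 12.2% higher and 12.8% lower. Among genes not near background these shares were 19.2% and 20%. The median log2 difference was 0.56 for the mitotic, −0.07 for the transport and 0.05 for the other kinesins, against 0.01 for all genes. Near background were 12 of the 37 kinesins, 2 of them mitotic, 3 transport and 7 other, and none of these was called by limma (0 at an unadjusted p under 0.05). In bulk RNA, more cells in mitosis and more transcript per cell cannot be told apart.

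**Figure D1:**
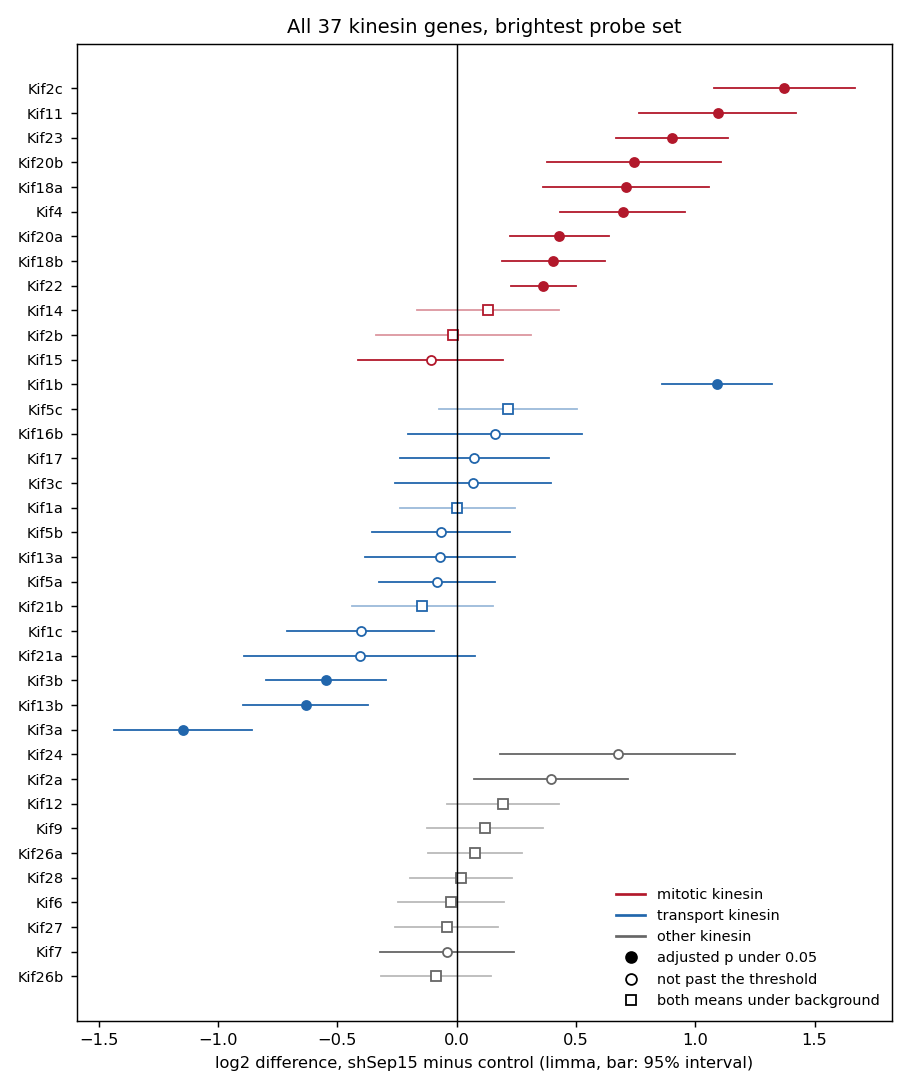
Log2 difference (shSep15 minus control) of each of the 37 kinesin genes on its brightest probe set, with the 95% interval of the limma fit as a bar; filled symbols passed an adjusted p of 0.05 and squares are genes near background. The 9 filled mitotic symbols lie right of 0, from Kif22 at 0.36 to Kif2c at 1.37, while the transport kinesins run from Kif3a at −1.15 to Kif1b at 1.09.

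Among motors of the spindle poles, Kif11 (Eg5, probe set 1452315_at) slides antiparallel microtubules apart and so separates the poles. It read 8.58, 8.16 and 8.50 on the control arrays and 9.62, 9.28 and 9.62 on the shSep15 arrays. Every shSep15 array was above every control array, and the log2 difference was 1.09 (SE 0.15, limma adjusted p = 0.000716), or 2.13-fold. Both of its other probe sets rose as well, by 1.05 and 0.88. Kif15, a motor that can stand in for Kif11 in keeping the spindle bipolar, had 1 probe set close to background, with 5.92, 6.34 and 6.27 on control and 5.97, 6.12 and 6.11 on shSep15 arrays. These groups overlapped, and the difference of −0.11 had a 95% interval of −0.41 to 0.20 (limma adjusted p = 0.679). A rise of the size seen for Kif11 lies outside that interval, which covers the signal of this probe set only. RMA shrinks differences at low signal, so the interval cannot exclude a rise of the Kif15 transcript.

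Kif2c (MCAK, probe set 1437611_x_at), a motor of the kinesin-13 family that removes tubulin from microtubule ends at centromeres and corrects wrong attachments, had the greatest rise among the 37 kinesins of the symbol rule. Its values were 8.44, 8.57 and 8.19 on control and 9.92, 9.61 and 9.79 on shSep15 arrays, with no overlap. The difference of 1.37 (SE 0.13, limma adjusted p = 0.000111) corresponds to 2.59-fold, and 2 further probe sets above background gave 1.19 and 0.97, both called. Kif2c lies on chromosome 4, where 32.8% of genes not near background were higher and 8.73% lower. The part of such chromosome-wide shifts in the values of single kinesins was not tested. Kif2b, the member of the same family that acts at early kinetochores, was near background at 4.16 and 4.15 (group means).

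Of the motors of chromosome arms and alignment, Kif4, Kif18a and Kif18b rose by less than Kif11 and Kif2c on their brightest probe sets. Kif4 (1450692_at), a chromosome-bound motor that shapes condensed chromosomes and stops microtubule growth in the central spindle, read 8.91, 8.79 and 9.09 on control and 9.67, 9.72 and 9.49 on shSep15 arrays. The groups stood apart by 0.70 (SE 0.12, limma adjusted p = 0.00244). Kif18a (1424107_at), which damps the oscillation of chromosomes at the spindle equator, went from 8.60, 8.03 and 8.30 to 9.17, 8.95 and 8.94, a rise of 0.71 (SE 0.15, limma adjusted p = 0.00988). The groups did not overlap, with control replicate 1 closest to the shSep15 arrays and control replicate 2 the lowest. Kif18b (1453226_at), a partner motor at the plus ends of astral microtubules, read 8.91, 9.04 and 9.04, then 9.36, 9.39 and 9.46. That rise of 0.41 (SE 0.10, limma adjusted p = 0.0149) was narrow but free of overlap, and its call ended without shSep15 replicate 3 (0.38, limma adjusted p = 0.0662).

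Kif22 (Kid), which pushes chromosome arms away from the poles, gave different sizes on its 3 probe sets. The brightest (1437716_x_at) read 10.95 to 10.98 on control and 11.31 to 11.35 on shSep15 arrays, a rise of 0.36 (SE 0.06, limma adjusted p = 0.00239). The other 2 rose by 1.19 and 0.93, so the rule that takes the brightest probe set gave the smallest of the 3 values. A probe set of the _x_ kind can pick up related transcripts, and RefSeq annotates the pseudogenes Kif22-ps and Kif4-ps. Their share in these signals was not tested.

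Motors of the central spindle and of cytokinesis rose together. Kif23 (MKLP1, 1455990_at), the motor subunit of centralspindlin, read 9.34, 9.32 and 9.60 on control and 10.26, 10.42 and 10.30 on shSep15 arrays. It rose by 0.90 (SE 0.10, limma adjusted p = 0.000315), and a second probe set above background gave more, at 1.22. Kif20a (MKLP2, 1449207_a_at), which carries the chromosomal passenger complex to the central spindle, was tight in control cells at 9.45, 9.46 and 9.47 and read 9.85, 9.81 and 10.02 in shSep15 cells. It rose by 0.43 (SE 0.09, limma adjusted p = 0.00949), and it lies on chromosome 18, where 46.1% of genes not near background were lower and 5.99% higher. Kif20b (MPHOSPH1, 1439695_a_at), a motor needed to complete abscission, read 7.58, 7.05 and 7.56 on control and 8.19, 7.98 and 8.25 on shSep15 arrays. It rose by 0.74 (SE 0.16, limma adjusted p = 0.0103). A second probe set, above background only by its shSep15 mean (5.45 on control, 6.21 on shSep15), rose by 0.77. The call on the first ended without shSep15 replicate 3 (0.69, limma adjusted p = 0.0531). Kif14, which works with citron kinase at the midbody, was near background on its 1 probe set at 4.48 and 4.61 (group means).

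**Figure D2:**
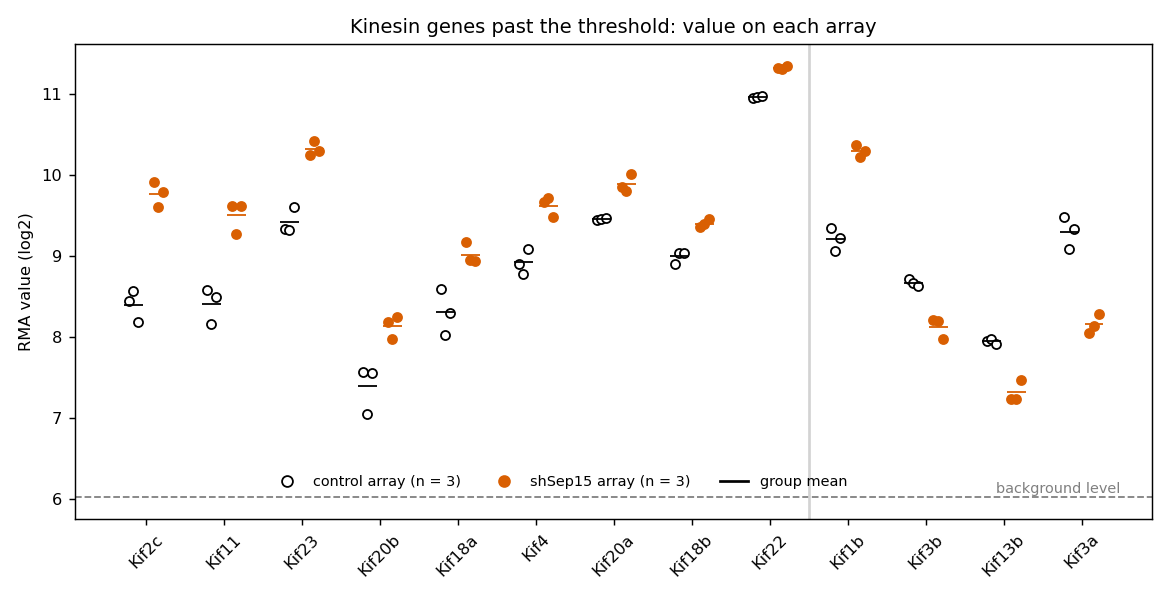
RMA value (log2) of the 13 kinesin genes past the threshold on each of the 6 arrays, control in white and shSep15 in orange, with lines at the group means; mitotic kinesins stand left of the vertical line. The 13 genes were picked by their adjusted p on these same arrays, so the gap between white and orange points follows largely from that choice. The largest differences are those of Kif2c (1.37) and Kif3a (−1.15).

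The rise was shared by the 3 shSep15 arrays. Over the 10 mitotic kinesins not near background, the shSep15 arrays 1, 2 and 3 stood a median of 0.77, 0.61 and 0.59 above the mean of the control arrays, and on each of them 9 of the 10 lay above the control mean. On the single control arrays that median lay between −0.05 and 0.07. Control arrays are set against their own mean, so values near 0 follow from the construction there. The 9 genes are those called higher on these same arrays, so their count follows largely from the calls. The 12 transport kinesins not near background had medians of −0.04, −0.11 and −0.09 on the same shSep15 arrays. Counted by probe sets above background in at least 1 group, 17 of 18 for mitotic kinesins rose and 0 fell. The remaining 1 was that of Kif15. Of 35 for transport kinesins 5 rose, all of Kif1b, and 9 fell. Probe sets of 1 gene share its transcript and are not independent. The dimmer Kif20b probe set among the 17 passed the level only through its shSep15 mean (5.45 on control, 6.21 on shSep15).

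Because the mitotic kinesins moved together, the promoter windows of the family were searched for short elements known from cell cycle promoters. The windows, from RefSeq (GRCm38.p6), run from 250 bases before to 50 bases after a gene's start, and 31 of the 37 kinesins had at least 1. The elements were the cell cycle genes homology region or CHR (TTTGAA), the CCAAT box (CCAAT) and the E2F site, searched as TTCCCGC, as the variant TTGGCGC, as the variant TTCGCGC and as the variant TTGCCGC, each on both strands. The letters of an E2F site and a CCAAT box can overlap, which happened 0 times in kinesin windows. The following stretches are shown because they hold, for the 8 mitotic kinesins that rose and have a window, the CHR nearest the start or, in Kif18a, the E2F match, with matches in capitals, 5′ to 3′ on the gene's strand. They come from chr19:37376262-37376381 (Kif11, + strand), chr7:127042420-127042449 (Kif22, −), chr9:61946780-61946809 (Kif23, −), chr19:34922353-34922382 (Kif20b, +), chr11:102925104-102925133 (Kif18b, −), chrX:100626072-100626101 (Kif4, +), chr4:117178858-117178887 (Kif2c, −) and chr2:109280716-109280745 (Kif18a, +).
Kif11: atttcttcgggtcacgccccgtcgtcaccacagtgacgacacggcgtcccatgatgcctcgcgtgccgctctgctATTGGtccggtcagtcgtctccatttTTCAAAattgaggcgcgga
Kif22: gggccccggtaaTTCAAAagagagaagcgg
Kif23: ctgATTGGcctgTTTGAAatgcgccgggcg
Kif20b: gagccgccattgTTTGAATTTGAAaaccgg
Kif18b: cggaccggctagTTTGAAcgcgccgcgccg
Kif4: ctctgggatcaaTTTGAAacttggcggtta
Kif2c: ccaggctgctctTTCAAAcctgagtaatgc
Kif18a: gcccagcctctgGCGCCAAactgcgagtcg

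A CHR match stood in 9 of the 11 mitotic kinesin windows (81.8%), in 1 of 13 transport windows (7.69%) and in 2 of 11 windows of other kinesins (18.2%), against 17.9% of all 32851 windows. An E2F match stood in 2 of 11 mitotic windows (18.2%), those of Kif18a and Kif15, and in 1 of 13 transport windows. Windows of other kinesins held one in 2 of 11 (18.2%), the same share as the mitotic ones, against 9.57% of all windows. Both a CHR and a CCAAT match stood in 6 of the 11 mitotic windows and in 0 of 13 transport windows. Other kinesins had both in 2 of 11 windows (18.2%), against 6.95% of all windows. In Kif11 the CHR began 19 bases before the start and a CCAAT box 45 bases before it; in Kif22 the nearest pair began 17 and 54 bases before the start. In Kif23, Kif18b, Kif20b and Kif4 the CHR nearest the start began between base 3 and base 20 of the transcript, and Kif20b held it as a direct repeat. Kif18a had no CHR in its window but an E2F match. Some windows belong to a start well inside the outermost one of the gene, that of Kif2c by 3852 bases, Kif14 by 1547, Kif3a by 1668 and the Kif1a window with the CHR match by 19559. Among mitotic kinesins that were not called, Kif15 had a CHR match 19 bases before the start and Kif14 one at 228 bases. The letters were thus not limited to genes called higher, though both of these read close to or near background. Over genes not near background, a CHR stood in 13.7% of windows of genes that rose, 11.8% of those that fell and 11.3% of those not called, and an E2F match in 21.6%, 14.3% and 15.8%. A match is a run of letters and not a site shown to be bound.

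**Figure D3:**
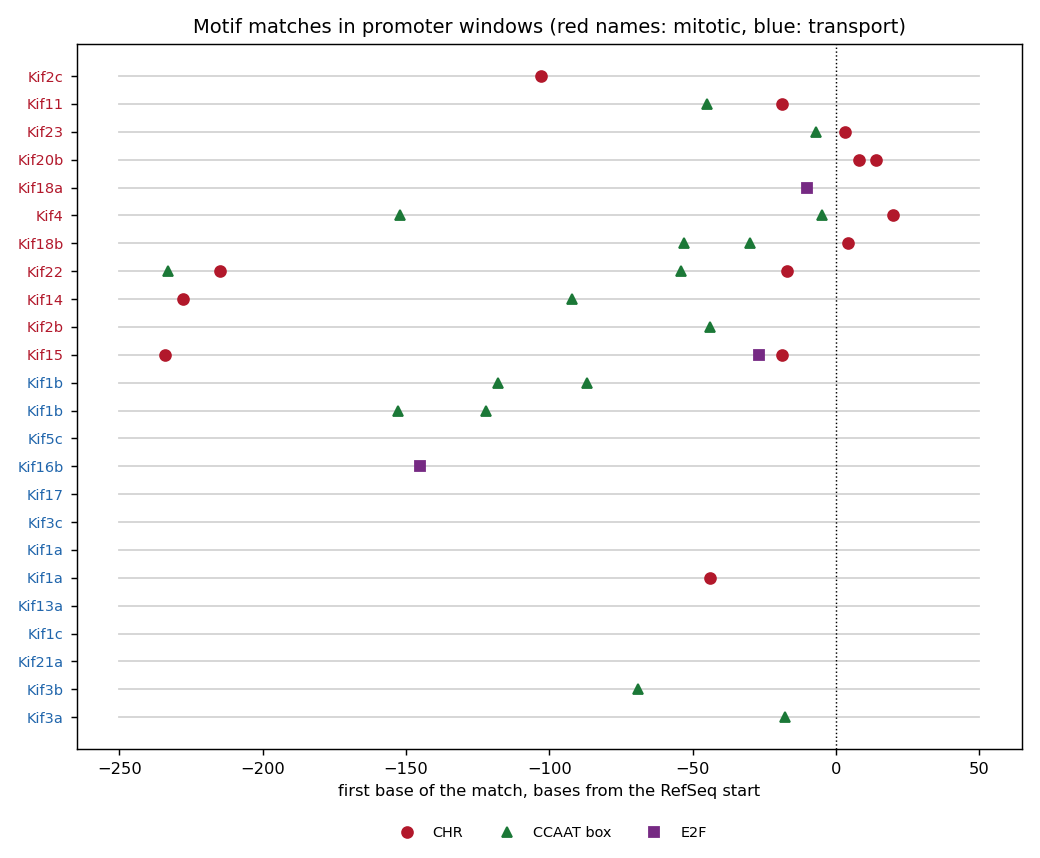
Position of motif matches in the promoter windows of mitotic (red names) and transport (blue names) kinesins, each set ordered by log2 difference from high to low; the x axis gives the first base of a match in bases from the RefSeq start, and a gene with 2 windows has 2 lines. CHR matches stand in 9 of 11 mitotic windows, close to the start in all of them except Kif2c and Kif14, and in 1 of 13 transport windows.

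Of the 15 transport kinesins, 6.67% rose and 20% fell. Among all genes these shares were 12.2% and 12.8%, and among genes not near background 19.2% and 20%. The share that fell is near the latter, so the changes are given gene by gene and not as a trait of the class. The greatest change was a fall of Kif3a (1420375_at), a heavy chain of heterotrimeric kinesin-2, the motor that builds cilia and moves cargo along them. It read 9.48, 9.09 and 9.34 on control and 8.05, 8.14 and 8.28 on shSep15 arrays. The groups did not overlap, and the difference was −1.15 (SE 0.13, limma adjusted p = 0.000268), which is 45.2% of the level in control cells. All 4 of its probe sets fell, by 0.78 to 1.15. Kif3b (1450074_at), the heavy chain that pairs with Kif3a, fell as well, from 8.72, 8.67 and 8.63 to 8.21, 8.20 and 7.98. The groups again stood apart, by −0.55 (SE 0.11, limma adjusted p = 0.00703), which is 68.4% of the control level, and 3 of its 4 probe sets were called lower. Kif3a and Kif3b lie on chromosomes 11 and 2, where 18.5% and 21.3% of genes not near background were lower.

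The remaining subunits and relatives of kinesin-2 were not called. Kifap3, the non-motor subunit that binds the Kif3a and Kif3b pair, read 9.55, 9.75 and 9.60 on control and 9.48, 9.45 and 9.52 on shSep15 arrays. Although these groups stood apart, the difference of −0.15 had a 95% interval of −0.36 to 0.06 (limma adjusted p = 0.352), which does not hold the difference of the brightest Kif3b probe set but does hold that of the Kif3b probe set that was not called (−0.26). Kif3c, an alternative partner of Kif3a, differed by 0.07 (−0.26 to 0.40), and Kif17, the homodimeric kinesin-2, by 0.07 (−0.24 to 0.39). In the windows of Kif3a and Kif3b the motif search found a CCAAT match each and no CHR, shown here for contrast with the mitotic genes (chr11:53567339-53567368 and chr2:153291335-153291364, both + strand).
Kif3a: aggacacccgagATTGGgcggggcgagctc
Kif3b: cgcttcggaggcCCAATaaagttattgaaa

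The vesicle motors of the kinesin-3 family went opposite ways. Kif1b (1455182_at), a carrier of mitochondria and synaptic vesicle precursors, was the transport kinesin that rose. Its values were 9.34, 9.06 and 9.23 on control and 10.38, 10.23 and 10.30 on shSep15 arrays, a difference of 1.09 (SE 0.10, limma adjusted p = 9.33e-05). Of its 7 probe sets 5 were called higher and those at 0.19 and 0.39 were not. Kif1b lies on chromosome 4, as Kif2c does. Without the members on chromosomes 3, 4, 17, 18 and X no transport kinesin was higher (0 by limma). That count follows from Kif1b being left out and is no further test. Kif13b (1436056_at), a vesicle motor that binds the Discs large scaffold, fell from 7.96, 7.98 and 7.92 to 7.24, 7.24 and 7.47, a difference of −0.63 (SE 0.12, limma adjusted p = 0.00402). The 3 further probe sets of Kif13b were near background, and the mean over its probe sets gave −0.15 (limma adjusted p = 0.237).

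Others of this family were below the threshold. Kif1c, a motor of integrin and secretory vesicles, read 9.70, 9.63 and 9.63 on control and 9.06, 9.12 and 9.57 on shSep15 arrays. Each shSep15 array was below each control array, with shSep15 replicate 3 closest to control; the difference of −0.40 was not called (limma adjusted p = 0.0750), but was without that array (−0.56, limma adjusted p = 0.0108). Both further probe sets of Kif1c above background were also lower in value, at −0.48 and −0.44. The latter passed the background level only through its control mean (6.21 on control, 5.77 on shSep15). Kif13a differed by −0.07 (95% interval −0.39 to 0.25) and the early endosome motor Kif16b by 0.16 (−0.20 to 0.53). Kif1a, a motor of neurons, was near background.

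Of the kinesin-1 heavy chains, the main motors of conventional transport, only Kif5b was well above background, and its probe sets disagreed. The brightest read 11.26, 10.94 and 10.78 on control and 11.10, 10.91 and 10.78 on shSep15 arrays, a difference of −0.06 (95% interval −0.35 to 0.23). A second, at 10.62, 10.11 and 10.24 and then 9.78, 9.53 and 9.65, fell by 0.67 (limma adjusted p = 0.00729), and the other 3 above background were not called. Kif5b lies on chromosome 18, with the share of lower genes given above for Kif20a. Kif5a was close to background at 6.09 and 6.01 (group means, difference −0.08), and Kif5c was near background at 4.78 and 4.99. Of the kinesin-4 motors of neurites, Kif21a differed by −0.41 (−0.89 to 0.08), with control replicate 2 at 8.49 against 9.46 and 9.16 on the other control arrays. Without that array Kif21a was called lower (−0.68, limma adjusted p = 0.0128), whereas its second probe set above background differed by −0.12 over all arrays (limma adjusted p = 0.739). Kif21b was near background.

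**Figure D4:**
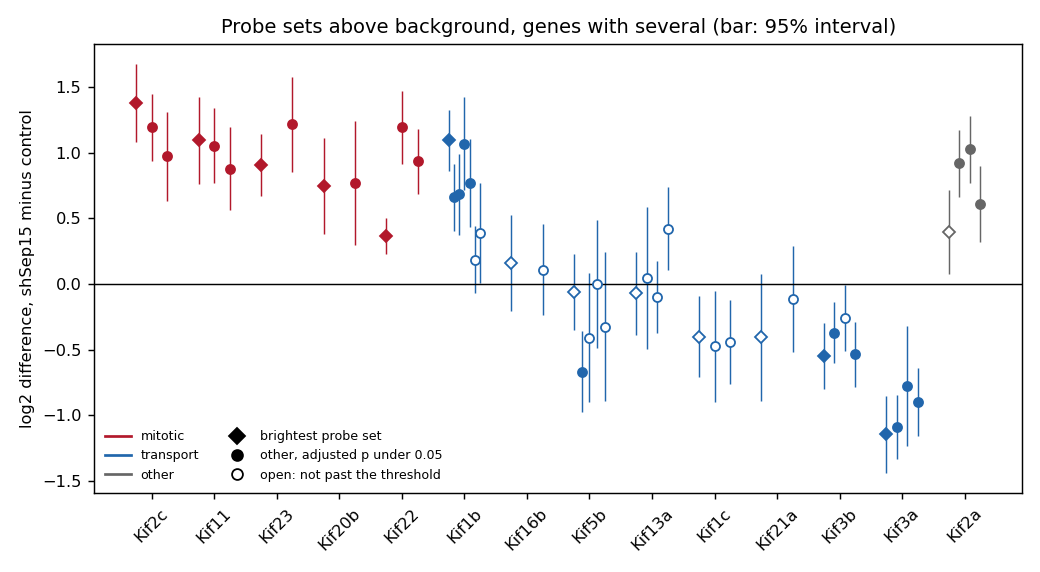
Log2 difference (shSep15 minus control) with its 95% interval for every probe set above background of the kinesins that have several; diamonds mark the brightest probe set, filled symbols an adjusted p under 0.05. The probe sets of Kif2c, Kif11, Kif23, Kif20b and Kif22 all lie above 0 and those of Kif3a and Kif3b below it. Those of Kif5b and Kif2a include called and uncalled ones. The dimmer Kif20b probe set passed the background level only through its shSep15 mean. The dimmest Kif1c probe set shown passed it only through its control mean.

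Among the other kinesins the choice of probe set mattered for Kif2a, a microtubule depolymerase of spindle poles, centrioles and neurites. Its brightest probe set read 9.44 to 9.82 on control and 9.75 to 10.19 on shSep15 arrays, overlapping, with a difference of 0.40 (limma adjusted p = 0.0916). The 3 other probe sets above background rose by 0.92, 1.02 and 0.61 (limma adjusted p = 0.000437, 0.000245 and 0.00844), and the mean over its probe sets by 0.61 (limma adjusted p = 0.00144). Kif24, a depolymerase that keeps centrioles from growing cilia, rested on a dim probe set with 5.77, 6.03 and 6.02 on control and 6.23, 7.15 and 6.45 on shSep15 arrays. No shSep15 array was below a control array, shSep15 replicate 2 was the highest, and the difference of 0.68 was not called (limma adjusted p = 0.0611). Kif7, a ciliary regulator of Hedgehog signalling, differed by −0.04 (95% interval −0.32 to 0.24). Near background, with differences from −0.09 to 0.20, were Kif6, Kif9, Kif12, Kif26a, Kif26b, Kif27 and Kif28.

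Among 9 kinesin genes and kinesin subunits outside the symbol rule, 3 rose (33.3%) and 1 fell (11.1%). Of the 9, 1 was near background and is among those that rose. These shares were 12.2% and 12.8% among all genes, and 19.2% and 20% among genes not near background. Cenpe, the kinetochore motor that brings chromosomes to the spindle equator, read 9.21, 8.72 and 9.45 on control and 10.65, 10.74 and 10.46 on shSep15 arrays, a rise of 1.49 (SE 0.17, limma adjusted p = 0.000304). Kifc1, a minus-end motor that focuses spindle poles, rose by 1.20 (SE 0.13, limma adjusted p = 0.000247), from 8.01, 7.58 and 7.86 to 8.99, 9.13 and 8.94. Kifc5b, its close relative, also rose while near background, and probes may not tell these genes apart. Kifc3, a minus-end motor of cell junctions, fell by 0.63. The light chains Klc1, Klc3 and Klc4, named here to account for the set, were not called.

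Genes that work with the mitotic kinesins rose alongside them. Of 18 spindle and cytokinesis partners, Kifc1 included, 15 rose (83.3%) and 0 fell (0 also at an unadjusted p under 0.05), with a median of 0.64. Among all genes not near background 19.2% rose and 20% fell. The kinase Plk1 rose by 1.35, Aurkb by 1.19 and Birc5 by 1.14, the latter 2 members of the chromosomal passenger complex that Kif20a carries. A further 3, direct partners named after their values were seen, rose by less: Prc1, which Kif4 brings to the central spindle, by 0.57, Racgap1, the second subunit of centralspindlin, by 0.40, and the spindle assembly factor Tpx2 by 0.34. Aurka, Numa1 and Anln were not called. CHR matches stood in 13 of the 17 promoter windows of these partners (76.5%). Of 15 tubulins, most of them subunits of the track itself, 5 were near background and 8 rose. The share that rose was 53.3%, against 12.2% of all genes and the same 19.2% of those not near background. No tubulin fell (0 also at an unadjusted p under 0.05), and the median was 0.52. Tuba4a rose by 2.42, Tubb2a by 2.17, Tuba1a by 0.91 and Tubg1, which nucleates microtubules, by 0.89.

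Of 17 factors known to bind cell cycle promoters, 8 rose (47.1%) and 3 fell (17.6%), with a median of 0.38. The share that fell is near the 20% of all genes not near background, and the share that rose stands against 19.2%. E2f8 and E2f7, repressors of the E2F family, rose by 1.75 and 1.49, Mybl2, the activating subunit of the complex that binds CHR elements, by 1.24, and the pocket protein Rbl1 by 1.07. Foxm1, which joins that complex late in the cycle and is named after its value was seen, differed by 0.11 (95% interval −0.10 to 0.33). The 3 that fell were Lin54, the subunit that contacts the CHR, by 0.66, and the subunits Nfya and Nfyb of the CCAAT-binding complex, by 0.45 and 0.60, while its remaining subunit Nfyc rose by 0.51; these 4 are also named after their values were seen.

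Of 17 genes listed as cargo adaptors of transport kinesins, kinesin light chains included, 0 rose (0 also at an unadjusted p under 0.05). Of the same 17, 7 fell (41.2%), and the median was −0.22. Mapk8ip1 (JIP1), a scaffold that links kinesin-1 to its cargo, fell by 0.93, Rab3gap1 by 0.71, the mitochondrial adaptor Trak2 by 0.59 and the lysosomal adaptor Plekhm2 by 0.52. Mapk8ip1 was above background only by its control mean (6.84 on control, 5.91 on shSep15). Rab3gap1 acts on the GTPase Rab3 and is not an established kinesin adaptor, though it is counted among the 7. Of 17 subunits of cytoplasmic dynein and dynactin, the motor that runs toward minus ends, 2 rose (11.8%) and 5 fell (29.4%), with a median of −0.09. Near background were 2 of the 17 genes listed as adaptors and 2 of the 17 dynein and dynactin subunits. Across all genes 12.2% rose and 12.8% fell, and among genes not near background these shares were 19.2% and 20%. The heavy chain Dync1h1 fell by 0.75, the light chain Dynlt3 by 0.88, the light intermediate chain Dync1li2 by 0.69 and the dynactin subunit Dctn6 by 0.52.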

How the data were processed

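RNA of 6 CT26 samples was read on 6 arrays. Each probe set has 1 deposited log2 value for each array, which the authors made with RMA, per the submitters' processing notes. No version of RMA and no filter is stated in the sources used here. Values ran from 3.31 to 14.24. RMA sets the arrays' distributions alike, and it shrinks differences at low signal. Of 45101 probe sets, 64 array controls were left out and 45037 tested; 34945 had 1 gene symbol, 932 several and 9160 none, and only the first kind named a gene. Symbols other than those of the members were updated through the RefSeq table of GRCm38.p6 (34741 found). A gene's value was its single-symbol probe set with the highest mean over 6 arrays; the 37 kinesins had 99 such probe sets, with more than 1 in 25 genes, and 1 probe set shared by Kif27 and another gene was not used. The background level was the 95th percentile of the mean values of 80 olfactory and vomeronasal receptor probe sets.

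Probe sets were fitted with limma 3.58.1 in R 4.3.3 (lmFit, eBayes with an intensity trend) on group alone. Two-sided p-values were adjusted over the 45037 probe sets (Benjamini-Hochberg), with a threshold of 0.05; differences are shSep15 minus control. The fit was tested on simulated data. Genes named are all members, the target, Cenpe, Kifc1 and Kifap3, and up to 4 called genes of largest difference per list. Beyond that rule, genes marked in the text, uncalled members named to account for a list (Aurka, Numa1, Anln and the light chains) and the cell type markers Epcam, Cdh1, Cdx2 and Ptprc are named. The members, classes and lists were chosen with earlier results of these data known. Kif28 was added to the other kinesins after the annotation was read, and Kif19a and Kif25 have no value here. Promoter windows are RefSeq's, and a motif match is a plain letter search. The alternatives tried are given in the closing section.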

Additional observations from a re-analysis of the deposited data

How the results depend on the processing

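Counts of kinesins that changed held within 1.5 times under every alternative fit: no intensity trend, arrays shifted to the same median, the mean over a gene's probe sets, only probe sets above background, and the repeat number of the titles as a block. They also held at an adjusted p under 0.01. Leaving out 1 array at a time gave 8 to 11 kinesins higher, 3 to 4 lower, 7 to 9 mitotic kinesins higher, 1 transport kinesin higher and 3 to 4 transport kinesins lower. Without the members on chromosomes 3, 4, 17, 18 and X (where earlier results of these data had shown wide shifts), 6 kinesins were higher, all mitotic, and 0 transport kinesins; fewer genes are counted there. Of 13 called kinesins 10 kept their call in all 11 alternative fits, the others being Kif13b, Kif18b and Kif20b, and 4 uncalled ones, Kif1c, Kif21a, Kif24 and Kif2a, gained one in at least 1 fit. With the replicate block 12 kinesins were higher, Kif24 and Kif2a being added, and 3 lower. Same-numbered arrays did not deviate together in every pair (correlations of 0.40, −0.20 and −0.06 over 21380 probe sets), so the numbers were not taken as pairs. Arrays of different number ranged from −0.39 (control 3 with shSep15 1) to 0.44 (control 3 with shSep15 2). No fit here models deviations shared by differently numbered arrays, and their effect was not tested. Precision is limited by 3 arrays per group.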
